A study of Mus musculus with 7 samples.

Results

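The 9 transcription factors Tcf7, Lef1, Satb1, Bcl11b, Runx1, Gata3, Ets1, Myb and Tox direct or maintain the T cell fate in the thymus. Their RNA was compared between mouse DN4 thymocytes that carried a γδ T cell receptor transgene and DN3 thymocytes of mice without it. The factors were chosen by name, as every probe whose gene name in the scanner files was 1 of these 9. The array held 22 such probes on 31 spots, and 21 of them were among the 34906 of 41174 probes kept, those whose signal in 1 of the channels stood well above background on 3 or more arrays.

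RNA of flow-sorted thymocytes was hybridised to 7 Agilent arrays with 2 colours, and every array set a DN4 population against DN3 cells. Cells labelled Lig+ (4 arrays) were DN4 cells of KN6 Tg Rag2-/- mice, in which the KN6 γδ T cell receptor transgene supplies the receptor. Cells labelled Lig- (3 arrays) were DN4 cells also given as KN6 Tg Rag2-/-, with the opposite ligand label. Whether the mice of these groups differed in a further gene is not given in the sources used here. The control on all arrays was the DN3 population of Rag2-/- mice without the transgene, so all 3 populations lacked Rag2, and the strain was BALB/c throughout. Each ratio of DN4 over DN3 thus holds both the change of stage and the presence of the transgene, which cannot be told apart. Per the series text the samples are biological replicates, and 1 array of each group is a dye swap. Ages, the promoter of the transgene, the number of animals per sample, whether the DN3 RNA was 1 pool, how the Lig- cells came to lack the ligand and whether a dye swap reused the RNA of another array are not given in the sources used here. The source names of slides 3 and 4 leave out DN4, which the growth protocol supplies. The DN3 RNA therefore counted as 1 control sample, a ratio was tested against 0 without the control's own spread, and p-values measure the spread between arrays.

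Thymocytes that lack CD4 and CD8 are called double negative, and DN3 is the stage at which receptor gene rearrangement is checked before cells move on to DN4. Notch signals switch on Tcf7 and Gata3 in early progenitors, and Bcl11b then seals the T cell fate. Runx1 and Myb act from blood progenitors on, and Ets1, Lef1, Satb1 and Tox also take part in T cell development. In the γδ branch the strength of the receptor signal, which a ligand can raise, is known to steer the effector program of a cell.

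The levels came from 60-base probes, and 5 of them are shown. They lie away from the 3′-most probe of their gene on the array, or their sequence bears on how far their values can be read. All positions are in mm7. For Ets1, which binds DNA through the ETS domain, a pair of probes at chr9:32655863-32655922 and chr9:32655853-32655912 shared 50 bases that differed at 4 places. Capitals mark these places, which are A10G, G11C, G37C and C38G, counted from 1 at the 5′ end of probe A_52_P232830, with its base first.
Ets1 A_52_P232830: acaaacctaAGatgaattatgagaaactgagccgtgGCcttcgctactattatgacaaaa
Ets1 A_51_P329043: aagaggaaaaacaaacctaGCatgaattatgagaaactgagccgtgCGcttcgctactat
The first was designed on RefSeq transcript NM_011808 and the second on the sequence X55787. The single Bcl11b probe (chr12:105437087-105437146, minus strand), the 5′-most Myb probe (chr10:20878630-20878689, minus strand), and a Runx1 probe whose coordinates run over 30453 bases (chr16:92667924-92698376, minus strand) follow, with no part marked.
Bcl11b A_51_P171772: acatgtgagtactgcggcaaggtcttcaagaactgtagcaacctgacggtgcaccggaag
Myb A_52_P444839: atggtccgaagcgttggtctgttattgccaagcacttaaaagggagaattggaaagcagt
Runx1 A_52_P202358: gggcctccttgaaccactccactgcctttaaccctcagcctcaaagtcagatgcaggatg
Each of these 5 sequences holds at least 1 reading frame without a stop. The Myb probe lies 27418 bases from the 3′-most Myb probe of the array. No annotation of mm7 was used here, so no probe was placed in an exon, intron or UTR.

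Across whole arrays, 72.9% to 84.96% of probes were well above background in the DN4 RNA and 75.8% to 83.8% in the DN3 RNA. There were 0 saturated spots. The headers give 2 scan days, the first for slides 1 and 2 and the second for slides 3 and 4. The DN3 marker genes fell in both DN4 populations (6 of 7 in Lig+, 7 of 7 in Lig-), and of the γδ T cell markers 4 of 7 rose in Lig+ and 7 of 7 in Lig-. Markers of other cells were present as well: the summed intensity of 7 dendritic cell markers ran from 43800 to 73162 in Lig+, from 9900 to 16392 in Lig- and from 36623 to 43647 in DN3. That of 8 macrophage markers ran from 9915 to 26236, from 8768 to 17809 and from 68623 to 88948, and that of 7 epithelium and stroma markers from 2901 to 7232, from 5230 to 9461 and from 23157 to 39972. That of 7 NK and innate lymphoid markers ran from 104953 to 136652 in Lig+, from 63995 to 86638 in Lig- and from 30163 to 62139 in DN3. The sums of B cell markers ran from 22280 to 30350, from 21187 to 24675 and from 34339 to 47104, those of granulocyte markers from 1180 to 7388, from 2107 to 9936 and from 3979 to 10906, and those of erythroid markers from 12356 to 55011, from 18517 to 42763 and from 12361 to 131428. Of the 6 erythroid markers 5 were measured, and none of the measured markers was below background on every array. The summed levels thus differed between the populations, while single markers were uneven. In Lig+ against DN3, 1 of 7 dendritic markers rose and none fell, 3 of 7 NK and innate lymphoid markers rose and 3 fell, 1 of 8 macrophage markers rose and 5 fell, and 1 of 7 epithelium and stroma markers rose and 1 fell. In Lig- against DN3 the counts were none and 2, 1 and 2, none and 7, and 1 and 3. Over all genes 17.2% rose and 18.7% fell in Lig+ against DN3, and 16.1% rose and 14.8% fell in Lig-. The part of such cells in the results was not tested.

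All values below are log2 ratios of DN4 over DN3, in which 1 means a 2-fold higher signal in DN4, and fitted values allow for dye. Fits of scan day 2 alone are an exception without a dye term, since all its arrays had DN4 in Alexa 555. Their ratios over DN3 hold any dye effect, so a gap to scan day 1 is not of day alone. Counted by the probe of highest mean intensity of each gene, 8 of the 9 genes passed an adjusted p of 0.05 in Lig+ against DN3, where 35.9% of 23602 genes did (36.6% of probes). Tcf7, Lef1, Gata3, Ets1 and Tox rose, as 17.2% of genes did, and Bcl11b, Runx1 and Myb fell, as 18.7% did. In Lig- against DN3, 7 of the 9 passed, where 30.8% of genes did (31.7% of probes): Tcf7, Lef1, Satb1, Gata3, Ets1 and Tox rose, as 16.1% of genes did, and Runx1 fell, as 14.8% did. By single probes, 18 of the 21 kept probes passed in Lig+. Of these, 11 rose, where 17.7% of all probes did, and 7 fell, where 18.9% did. In Lig-, 10 passed, of which 9 rose (16.3% of all probes) and 1 fell (15.5%). The median of the 9 genes was 0.74 in Lig+ and 1.08 in Lig-, beside 6e-04 and -0.0015 over all genes. Both comparisons share the DN3 control. Without the first Lig+ array, which is the only Lig+ array with DN4 in Alexa 647, the Lig+ count was 5, and the share of all probes was 16.1%. Fewer cells that express a gene and less RNA of it per cell cannot be told apart in sorted bulk populations.

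**Figure D1:**
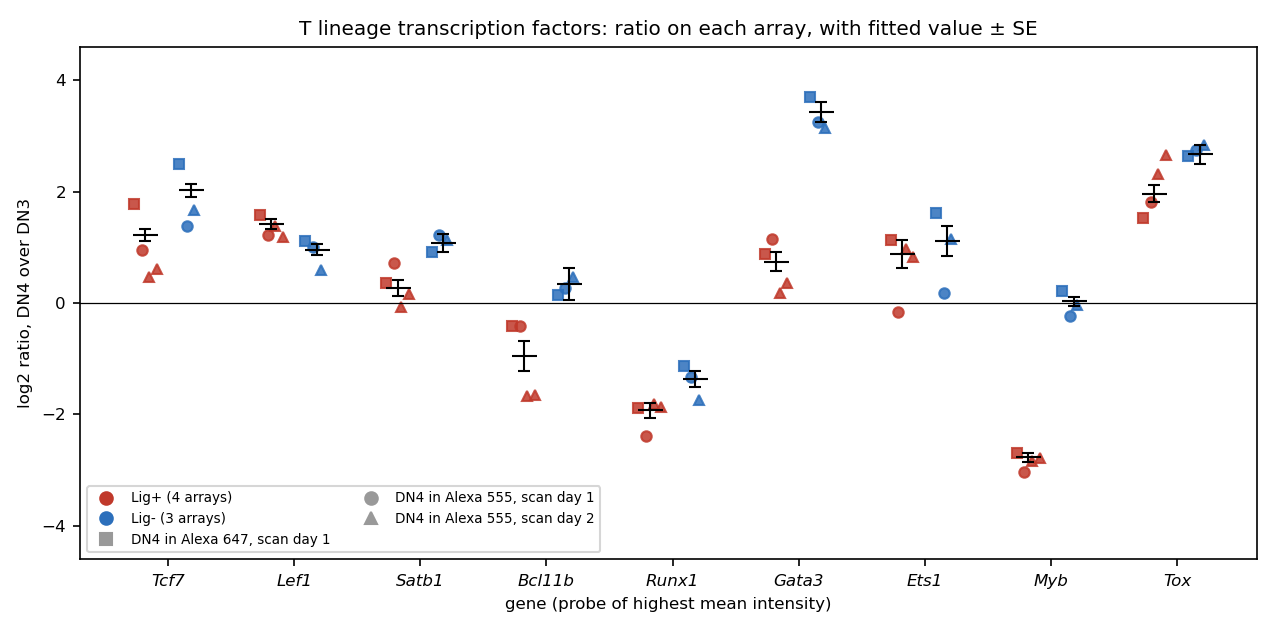
Log2 ratio of DN4 over DN3 for the probe of highest mean intensity of each of the 9 genes, 1 point per array (red Lig+, n = 4; blue Lig-, n = 3; shape gives dye and scan day), with the fitted value and its SE in black. Gata3 lies at 3.14 to 3.70 in Lig- and at 0.19 to 1.15 in Lig+, and Myb at -3.04 to -2.70 in Lig+ and at -0.23 to 0.22 in Lig-.

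Myb, a DNA-binding factor of blood progenitors and early thymocytes that is needed for their survival and growth, was lower in Lig+ DN4 cells and, at its main probe, close to its DN3 level in Lig- DN4 cells. This probe, the mean of 10 spots, read -2.70, -3.04, -2.84 and -2.78 on Lig+ arrays 1 to 4. It read 0.22, -0.23 and -0.03 on Lig- arrays 1 to 3. All 4 Lig+ arrays were low and the groups lay far apart, with the Lig- arrays on both sides of 0. The fitted ratio was -2.77 ± 0.08 (SE, n = 4, adjusted p = 8.0e-06) in Lig+, a 6.84-fold lower signal, and 0.03 ± 0.08 (n = 3, adjusted p = 0.835) in Lig-, with a 95% interval from -0.17 to 0.23. The difference between the groups was -2.80 ± 0.11 (adjusted p = 2.41e-04), and it ran from -2.88 to -2.57 over 20 alternative analyses, all with a call.

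The other Myb probes gave the same direction in Lig+, while their Lig- values ran from -0.81 to 0.51. Probe A_51_P375538, which lies 259 bases from the main probe, gave -2.72 ± 0.07 (n = 4) in Lig+ and -0.05 ± 0.08 (n = 3) in Lig-. Probe A_52_P83704, designed on the cDNA AK036518 and 21828 bases away, gave -2.07 ± 0.14 and 0.51 ± 0.16. The adjusted p of that Lig- value was 0.0493, and the call was lost in 12 of 19 alternatives, over which the value ran from 0.13 to 0.67. It fell from 0.51 to 0.33 without Lig- replicate 2. It was 0.50 without Lig+ replicate 1, 0.50 without Lig+ replicate 3, 0.51 without Lig+ replicate 4 and 0.57 without Lig- replicate 1, also without a call. The 5′-most probe, A_52_P444839, whose sequence is given above, gave -2.27 ± 0.23 in Lig+ and -0.81 ± 0.25 (adjusted p = 0.053) in Lig-. Its Lig- arrays read -0.71, -0.70 and -0.98, all lower than those of the other 3 probes. This Lig- value passed in 9 of 19 alternatives, over which it ran from -0.99 to -0.67, among them median centring (-0.93, adjusted p = 0.00952) and each scan day alone (-0.70 and -0.98). It also passed without Lig+ replicate 2 (-0.84), without Lig+ replicate 4 (-0.78) and without slide 2 (-0.85). Its difference between the groups, -1.45 ± 0.33, passed at an adjusted p of 0.0405 and did not pass on scan day 2 (-0.82), without slide 2 (-1.22), or without any of Lig+ replicate 1 (-1.33), Lig+ replicate 3 (-1.496), Lig- replicate 1 (-1.33), Lig- replicate 2 (-1.41) or Lig- replicate 3 (-1.58). Whether the probes of Myb differ from one another was not tested.

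Gata3, a zinc finger factor needed for T cell commitment and later for type 2 cytokine programs, was higher than DN3 in both populations and far higher in Lig-. Its single probe (chr2:9796514-9796573, minus strand) read 0.88, 1.15, 0.19 and 0.35 on Lig+ arrays 1 to 4 and 3.70, 3.25 and 3.14 on Lig- arrays 1 to 3. Every Lig- array was above every Lig+ array, and the Lig+ arrays of scan day 2 were below those of scan day 1. The fitted ratio was 3.43 ± 0.18 (n = 3, adjusted p = 6.15e-05) in Lig-, a 10.8-fold higher signal, and 0.74 ± 0.17 (n = 4, adjusted p = 0.0145) in Lig+, a 1.67-fold one. The Lig+ value was 0.27 on scan day 2 alone and 0.82 without Lig+ replicate 1, and neither passed. Its call was also lost with each group's own arrays alone. The difference of -2.69 ± 0.24 (adjusted p = 0.00206) kept its call in all 20 alternatives, from -2.89 to -2.47.

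Tox, an HMG-box factor that is needed for CD4 T cell and innate lymphoid development, rose strongly in both populations. Its main probe read 1.53, 1.82, 2.32 and 2.66 on the Lig+ arrays and 2.65, 2.76 and 2.84 on the Lig- arrays. The Lig- arrays lay close together, the Lig+ arrays of scan day 2 were above those of scan day 1, and the highest Lig+ array just overlapped the lowest Lig- array. The fit gave 1.97 ± 0.16 (n = 4, adjusted p = 1.89e-04) and 2.67 ± 0.17 (n = 3, adjusted p = 1.19e-04), which are 3.91-fold and 6.36-fold higher signals. The second kept probe, 307 bases away, gave 2.02 ± 0.22 and 2.44 ± 0.24. The difference of -0.70 ± 0.22 did not pass (adjusted p = 0.106, 95% interval from -1.24 to -0.16), and it was -1.03 on scan day 1 and -0.35 on scan day 2. It passed with slide as a random block (-0.79, adjusted p = 0.0146) and without Lig+ replicate 4 (-0.86). The remaining probe, 53048 bases from the main one and designed on the cDNA AK051947, was above background on 2 arrays only and was not kept.

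Tcf7, which encodes the HMG-box factor TCF-1 that opens the T cell program, was higher than DN3 in both populations and higher in Lig-. The main probe (chr11:52209369-52209428, minus strand) read 1.79, 0.96, 0.46 and 0.62 on the Lig+ arrays and 2.51, 1.39 and 1.67 on the Lig- arrays. The array with DN4 in Alexa 647 was the highest of each group, and on each of the 3 slides that held both groups the Lig+ array was the lower one, although the groups overlapped. The fit, which takes a dye effect of this size into account, gave 1.22 ± 0.10 (n = 4, adjusted p = 2.5e-04) and 2.03 ± 0.11 (n = 3, adjusted p = 7.36e-05). Without a dye term the values were 0.96 and 1.85. Within scan days the Lig+ value was 1.37 on day 1 and 0.54 on day 2, and the Lig- value 1.95 and 1.67. The day 2 values are without a dye term, and the fitted dye coefficient of this probe was 1.05, so the days are not alike. Among arrays with DN4 in Alexa 555, Lig+ read 0.96 on day 1 and 0.46 and 0.62 on day 2. The Lig- arrays of that dye read 1.39 on day 1 and 1.67 on day 2.

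The Tcf7 difference between the groups was -0.81 ± 0.15, a 1.75-fold lower signal in Lig+, with an adjusted p of 0.0211. It did not pass with median centring (-0.61), without a dye term (-0.90), or without any of Lig+ replicate 1 (-0.85), Lig+ replicate 4 (-0.78), Lig- replicate 1 (-0.85), Lig- replicate 2 (-0.88) or Lig- replicate 3 (-0.71). The second Tcf7 probe, 717 bases away, gave 0.79 ± 0.10 in Lig+, 1.36 ± 0.11 in Lig- and a difference of -0.57 ± 0.15 (adjusted p = 0.0619), which passed with slide as a random block (adjusted p = 0.00972).

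Lef1, the closest relative of TCF-1 in T cells, rose in both populations and stood higher in Lig+, the opposite order to Tcf7. Its main probe (chr3:131060609-131060668, plus strand) read 1.58, 1.22, 1.38 and 1.19 on the Lig+ arrays and 1.11, 1.01 and 0.59 on the Lig- arrays. Every Lig+ array was above every Lig- array. The fitted ratios were 1.42 ± 0.09 (n = 4, adjusted p = 7.22e-05) and 0.96 ± 0.10 (n = 3, adjusted p = 6.83e-04), 2.68-fold and 1.94-fold higher signals. Their difference of 0.46 ± 0.13 did not pass (adjusted p = 0.0675, 95% interval from 0.16 to 0.77), and it passed with slide as a random block (0.48, adjusted p = 0.0231) and without slide 2 (0.60).

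The other Lef1 probes did not all show the rise. Probe A_51_P420400, whose coordinates run over 18162 bases, gave 1.05 ± 0.10 in Lig+ and 0.32 ± 0.11 (adjusted p = 0.0791) in Lig-. Its difference of 0.73 ± 0.15 passed at an adjusted p of 0.0292 and did not pass with Agilent's processed signals (0.73). It also did not pass without Lig+ replicate 1 (0.83), 3 (0.66) or 4 (0.68), or without Lig- replicate 1 (0.83), 2 (0.74) or 3 (0.65). Probe A_52_P333110, designed on the cDNA AK042137 and 106980 bases upstream of the main one, was above background on 5 arrays and gave 0.15 ± 0.07 and 0.17 ± 0.08, with no call. Its mean log2 intensity was low, at 6.89. The Lig+ value of this probe passed in 3 of 18 alternatives, among them the limma fit to Agilent's processed signals (0.70, adjusted p = 0.0193).

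Runx1, the DNA-binding subunit that pairs with Cbfb and is used from blood stem cells to early thymocytes, fell in both populations. The main probe (chr16:92658334-92658393, minus strand) read -1.89, -2.39, -1.82 and -1.87 on the Lig+ arrays and -1.13, -1.33 and -1.74 on the Lig- arrays. Every Lig+ array was below every Lig- array, by a small margin on scan day 2. The fitted ratios were -1.93 ± 0.13 (n = 4, adjusted p = 1.0e-04) and -1.36 ± 0.14 (n = 3, adjusted p = 8.08e-04), 3.80-fold and 2.56-fold lower signals. The difference of -0.57 ± 0.19 did not pass (adjusted p = 0.114, 95% interval from -1.02 to -0.12), and it was -0.91 on scan day 1 and -0.10 on scan day 2. With slide as a random block it passed, at -0.61 (adjusted p = 0.0471). Probe A_52_P202358, shown above and designed on the sequence D13802, gave smaller values, -0.57 ± 0.12 (adjusted p = 0.00976) and -0.33 ± 0.13 (adjusted p = 0.0969), and the first did not pass without Lig+ replicate 1 (-0.54).

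Ets1, a factor that T cells use for receptor gene expression and survival, was higher in DN4 than in DN3 at all 4 probes, with uneven arrays. The main probe (chr9:32658897-32658956, plus strand) read 1.12, -0.16, 0.97 and 0.82 on the Lig+ arrays and 1.62, 0.18 and 1.15 on the Lig- arrays. The array of slide 2 was the lowest in each group, and the groups overlapped throughout. The fit gave 0.88 ± 0.25 (n = 4, adjusted p = 0.0339) and 1.11 ± 0.27 (n = 3, adjusted p = 0.023). The Lig+ call was lost without a dye term (0.69) and with each group's own arrays alone. It was also lost without any of Lig+ replicate 1 (1.02), Lig+ replicate 3 (0.74), Lig+ replicate 4 (0.78) or Lig- replicate 1 (0.83). The Lig- call was lost without Lig- replicate 1 (0.96) or Lig- replicate 3 (0.90).

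At the other Ets1 probes the arrays of slide 2 were not set apart. At A_52_P258291, A_52_P232830 and A_51_P329043 the Lig+ array of slide 2 read 0.34, 0.67 and 0.62. The Lig+ array of slide 1 read 0.10, 0.57 and 0.68. The Lig+ arrays of scan day 2 were higher, at 1.11 and 1.18, 1.25 and 1.89, and 1.66 and 2.16. The pooled Lig+ values below therefore lie between those of the scan days. The pair of overlapping probes shown above gave 0.99 ± 0.21 (A_52_P232830, adjusted p = 0.0109) and 1.16 ± 0.26 (A_51_P329043, adjusted p = 0.0144) in Lig+, and 0.71 ± 0.23 and 0.72 ± 0.29 in Lig-, where neither passed. Despite the 4 differing bases their ratios differed by less than their errors in either population, and since they share bases they are not separate evidence. Without Lig+ replicate 1 their Lig+ values were 1.22 and 1.41, with no call. Their Lig+ calls were also lost with each group's own arrays alone. Probe A_52_P258291 gave 0.55 ± 0.17 (adjusted p = 0.0432) and 0.40 ± 0.18, and its Lig+ call was lost in 10 of 19 alternatives, among them each left-out array except Lig+ replicate 2, over which the value ran from 0.22 to 1.14. The difference between the groups passed at none of the 4 Ets1 probes and ran from -0.23 ± 0.35 at the main probe (adjusted p = 0.746) to 0.44 ± 0.37 at A_51_P329043 (adjusted p = 0.532).

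Satb1, a chromatin organiser of thymocytes, was higher than DN3 in Lig- and did not pass in Lig+. The main probe (chr17:49889761-49889820, minus strand) read 0.37, 0.72, -0.07 and 0.16 on the Lig+ arrays and 0.92, 1.23 and 1.14 on the Lig- arrays. Every Lig- array was above every Lig+ array. The fit gave 0.27 ± 0.14 (n = 4, adjusted p = 0.19) and 1.08 ± 0.16 (n = 3, adjusted p = 0.00289). The difference of -0.81 ± 0.20 fell short of the threshold (adjusted p = 0.0544, 95% interval from -1.29 to -0.32), and passed in 8 of 20 alternatives, with values from -1.09 to -0.53 over all of them. It passed with slide as a random block (-0.78, adjusted p = 0.0137) and, among left-out arrays, without Lig+ replicate 2 (-0.94).

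The second Satb1 probe, A_52_P110489, lies 67327 bases away and was designed on the cDNA AK040502. It read 1.07, 1.20, -1.20 and -0.33 on the Lig+ arrays and 1.41, 1.57 and 0.93 on the Lig- arrays. Its DN3 log2 intensity was 9.37 to 9.53 on the 4 arrays of scan day 1 and 12.01 to 12.14 on the 3 of scan day 2. The Lig+ ratio was 1.14 within scan day 1 and -0.76 within scan day 2, so the pooled 0.36 ± 0.41 describes neither day. Without Lig+ replicate 1 it was -0.03.

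Bcl11b, the zinc finger factor that locks in the T cell fate, was lower than DN3 in Lig+ and not in Lig-. Its only probe of that name, shown above, read -0.42, -0.41, -1.68 and -1.65 on the Lig+ arrays and 0.15, 0.26 and 0.46 on the Lig- arrays. All Lig+ arrays were below 0 and all Lig- arrays above it, and the Lig+ arrays fell apart by scan day. The fit gave -0.95 ± 0.26 (n = 4, adjusted p = 0.0315) in Lig+ and 0.35 ± 0.29 (n = 3, adjusted p = 0.429) in Lig-. The Lig+ call was lost with slide as a random block (-0.94) and with each group's own arrays alone. It was also lost without any one array other than Lig+ replicate 2: -1.35 without Lig+ replicate 1, -0.79 without 3 and -0.80 without 4. Without Lig- replicates 1, 2 and 3 the Lig+ value was -0.83, -0.95 and -0.93, also with no call. Within scan days it was -0.41 and -1.67. The difference between the groups was -1.30 ± 0.37 (adjusted p = 0.0816, 95% interval from -2.21 to -0.40), -0.62 on day 1 and -2.13 on day 2. It passed with slide as a random block (-1.20, adjusted p = 0.0364) and without Lig+ replicate 2 (-1.54).

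**Figure D2:**
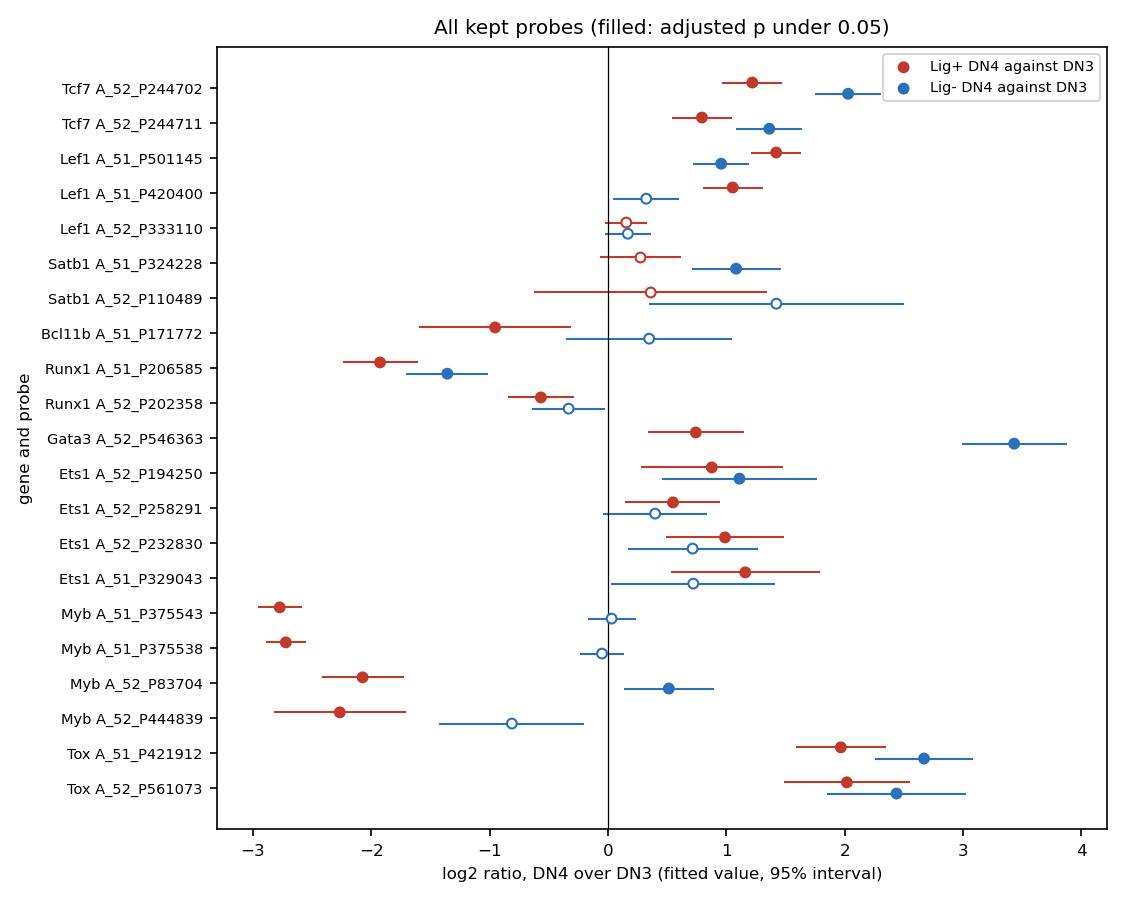
Fitted log2 ratio of DN4 over DN3 with its 95% interval for the 21 kept probes (red Lig+, 4 arrays; blue Lig-, 3 arrays; filled where the adjusted p is under 0.05). The 4 Myb probes lie between -2.77 and -2.07 in Lig+, and the Satb1 probe A_52_P110489 has the widest intervals.

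In the direct comparison of the DN4 populations, 3 of the 9 genes passed, where 11.2% of genes did (10.9% of probes), and 7 of the 21 kept probes did. Tcf7, Gata3 and Myb were lower in Lig+ than in Lig-, as 6.59% of genes were, and no main probe passed in the other direction, in which 4.58% of genes did. Of the 7 probes, 6 were lower in Lig+ (6.35% of all probes) and 1, of Lef1, was higher (4.57%). The array ratios of the groups did not overlap at 10 of the 21 kept probes, against 22.9% of all probes. These were the main probes of Lef1, Satb1, Bcl11b, Runx1, Gata3 and Myb, the other 3 Myb probes and Lef1 A_51_P420400. On scan day 1 alone, 9 of the 9 genes passed, where 44.0% of all probes did, and on scan day 2 alone 6 of 9, where 17.6% did, both from fits with 1 residual degree of freedom. With slide as a random block 8 of 9 passed (23.8% of probes), and without Lig+ replicate 2 the count was 5 (14.1%). The median over the 9 genes was -0.81, beside 3e-04 over all genes.

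**Figure D3:**
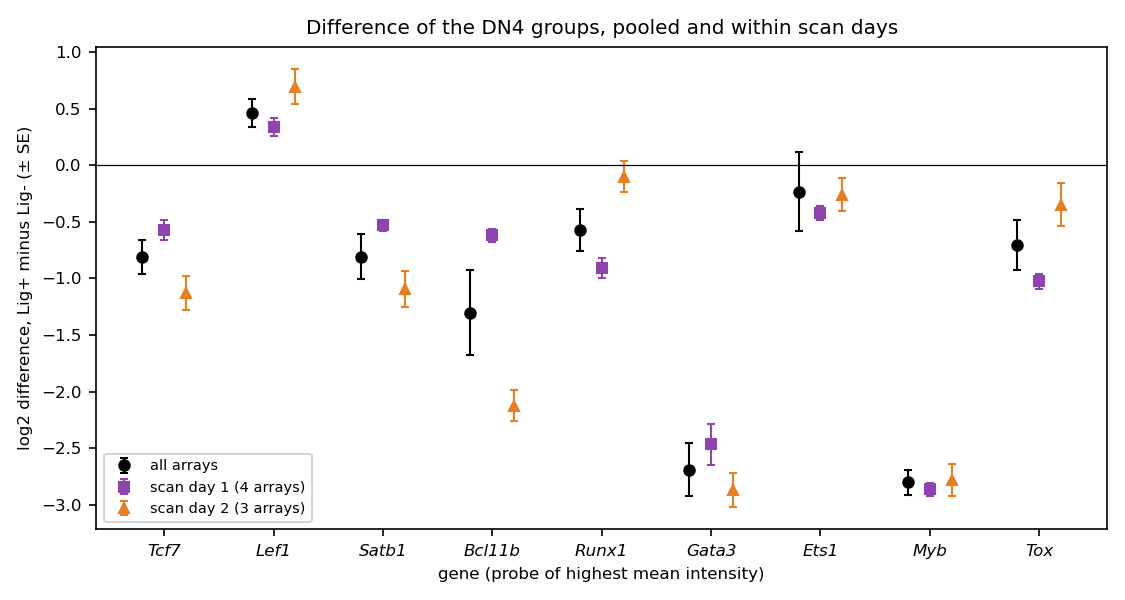
Log2 difference, Lig+ minus Lig-, with its SE for the main probe of each gene, over all 7 arrays (black) and within scan day 1 (purple, 4 arrays) and scan day 2 (orange, 3 arrays). Gata3 and Myb lie between -2.87 and -2.47 in all 3 fits, whereas Bcl11b is at -0.62 on day 1 and -2.13 on day 2.

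Single-channel log2 intensities, which compare populations at one probe and not probes with each other, gave the order of the populations. For Gata3 the order was Lig- (17.18 ± 0.43, SD, n = 3), Lig+ (14.81 ± 0.75, n = 4) and DN3 (14.02 ± 0.41, 7 channels), and the Lig+ range of 14.06 to 15.59 overlapped the DN3 range of 13.41 to 14.45. For Myb, DN3 (16.62 ± 0.42) and Lig- (16.53 ± 0.45) did not differ beyond their spread, and Lig+ (13.84 ± 0.51) lay below both. For Tox, Lig- (16.27 ± 0.23) and Lig+ (15.70 ± 0.18) lay above DN3 (13.58 ± 0.32) without overlap. For Runx1, DN3 (13.30 ± 0.19) was above Lig- (11.998 ± 0.29) and Lig+ (11.23 ± 0.47), and the DN3 range overlapped neither. For Bcl11b the DN3 channel itself split by scan day, from 15.34 to 16.61 in all, while the 4 Lig+ channels stayed between 14.84 and 15.11. The Lig- channels read 15.48 and 15.62 on scan day 1 and 16.84 on scan day 2. The 7 DN3 channels may be repeats of 1 RNA, so their SD may be technical.

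**Figure D4:**
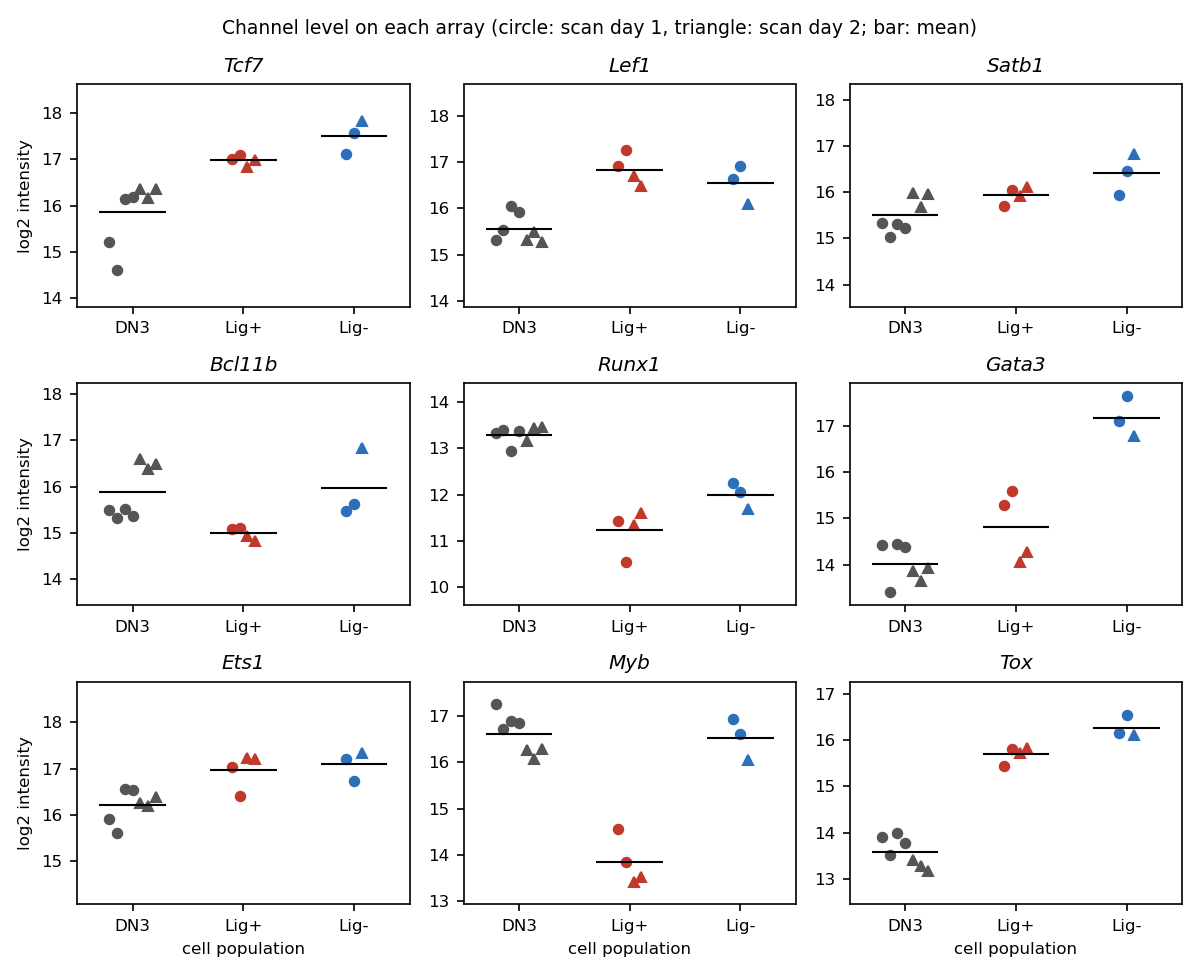
Log2 intensity after normalisation between arrays for the main probe of each gene, 1 point per channel (DN3, 7; Lig+, 4; Lig-, 3; circles scan day 1, triangles scan day 2), with the mean as a bar. The 3 Lig- channels of Gata3 lie between 16.79 and 17.64, above all others, and the 4 Lig+ channels of Myb between 13.43 and 14.55, below all others.

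Among 13 measured paralogs of the 9 factors, 4 rose and 5 fell in Lig+ and 2 rose and 6 fell in Lig-, with medians of -0.15 and -0.24. For this list and those below, the shares over all genes were 17.2% risen and 18.7% fallen in Lig+. In Lig- they were 16.1% and 14.8%, and the 2 paralogs that rose there were near that share. Tcf7l1 and Tcf7l2, the other TCF family members, moved apart: Tcf7l1 rose by 2.64 ± 0.20 in Lig+ and 1.08 ± 0.22 in Lig-, and Tcf7l2 changed by -2.90 ± 0.12 and -0.69 ± 0.13. Both differed between the populations, by 1.55 ± 0.29 (adjusted p = 0.0222) and -2.22 ± 0.17 (adjusted p = 0.00153). Tox3, a relative of Tox, went the other way from it, at -5.58 ± 0.37 and -4.42 ± 0.41, and Bcl11a, the paralog of Bcl11b used in early progenitors and B cells, fell in both, at -2.61 ± 0.24 and -2.58 ± 0.27.

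Of 21 partners and cofactors, 9 rose and 2 fell in Lig+ and 11 rose and none fell in Lig-, with medians of 0.17 and 0.46. The list held 5 genes of the TLE family, some of which encode corepressors that bind TCF-1 and LEF-1. Of these 5 genes, 4 rose in both populations, and Tle3 did not pass, at -0.22 ± 0.08 and -0.0062 ± 0.09. Tle1 rose by 0.67 ± 0.09 in Lig+ and 0.54 ± 0.10 in Lig-, Tle2 by 0.84 ± 0.13 in Lig+ and 2.89 ± 0.14 in Lig-, Tle4 by 0.84 ± 0.06 and 1.06 ± 0.07, and Tle5 by 1.05 ± 0.06 and 1.19 ± 0.07. Tle2 differed between the populations by -2.04 ± 0.18 (adjusted p = 0.00197). Zfpm1, which encodes the GATA partner FOG-1, rose by 1.31 ± 0.12 and 0.96 ± 0.13. Of 10 Wnt and TCF target genes 4 rose and 2 fell in either population, with medians of 0.10 and 0.20: Axin2, a feedback inhibitor of Wnt signalling, rose by 1.42 ± 0.30 and 1.75 ± 0.32 and Rnf43 by 0.99 ± 0.27 and 1.15 ± 0.29, whereas Myc gave -1.84 ± 0.26 and -1.06 ± 0.29 and Nkd1 gave -0.99 ± 0.08 and -0.66 ± 0.08.

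Of 20 other regulators of T cell development, 6 rose and 8 fell in Lig+ and 11 rose and 7 fell in Lig-, with medians of -0.03 and 0.49. Sox13, an HMG-box factor of γδ T cells, was at 0.39 ± 0.29 in Lig+, where it did not pass, and rose by 3.76 ± 0.32 in Lig-. Its difference was -3.37 ± 0.41 (adjusted p = 0.00547). Id3, an inhibitor of E proteins, rose by 4.11 ± 0.25 and 3.80 ± 0.27, and Erg, an ETS factor of progenitors that also stands among the DN3 markers, gave -4.59 ± 0.19 and -3.50 ± 0.21.

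Of 9 measured genes that Bcl11b is known to restrain, 4 rose and 3 fell in Lig+ and 3 rose and 3 fell in Lig-, with medians of 0.12 and -0.29. Klrd1, an NK receptor gene, was at 4.53 ± 0.32 in Lig+ and -0.29 ± 0.35 in Lig-, a difference of 4.82 ± 0.45 (adjusted p = 0.00232). Id2, the E protein inhibitor of innate lymphoid cells, was at 1.74 ± 0.13 in Lig+ and -1.98 ± 0.14 in Lig-, a difference of 3.72 ± 0.18 (adjusted p = 5.04e-04). Il2rb rose by 3.84 ± 0.26 and 2.15 ± 0.28 and Nkg7 by 1.38 ± 0.13 and 0.58 ± 0.14. Other genes of this list went the other way. Tyrobp (-1.16 ± 0.24 and -1.18 ± 0.26) and Fcer1g (-0.45 ± 0.08 and -0.71 ± 0.09) fell in both populations, and Ncr1 fell in Lig+. Kit was lower in Lig+ than in Lig-, by -0.54 ± 0.11 (adjusted p = 0.0315). Nkg7 is also in the NK and innate lymphoid list, whose summed intensity was highest in Lig+, although Ncr1 (-1.32 ± 0.22), Klrb1c (-0.89 ± 0.12) and Gata2 (-0.39 ± 0.06) of that list fell in Lig+ against DN3. Of 20 T cell identity genes, 7 rose and 7 fell in Lig+, where 17.2% and 18.7% of all genes did. In Lig- 9 rose and 6 fell, where 16.1% and 14.8% did. The medians of the list were 0.20 and 0.40. Cd2 rose by 4.16 ± 0.40 and 3.83 ± 0.44, and the DN3 genes Il2ra, Ptcra and Rag1 gave -5.29 ± 0.20, -5.22 ± 0.26 and -4.58 ± 0.25 in Lig+ and -5.45 ± 0.22, -4.70 ± 0.28 and -3.86 ± 0.28 in Lig-.

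The genes whose ratios on the 7 arrays were nearest to those of a factor, by root mean square (RMS) difference among 17809 genes, are given as a description. For Gata3 they were Maf (RMS 0.268, with 1.01 in Lig+ and 3.58 in Lig-), Ppm1l (0.278) and Slc7a8 (0.305). For Myb they were Tcte1 (0.187), Lxn (0.274) and Micall2 (0.377), and for Tox Mex3b (0.238) and Jakmip1 (0.279). For Tcf7 they were Wdfy2 (0.282), Slc2a3 (0.290) and Eno2 (0.319), and for Lef1 Rgs10 (0.149), Il2rg (0.154) and Relt (0.157). For Satb1 they were Bptf (0.127), Arhgef6 (0.146) and Cdh15 (0.151), for Runx1 Hacd1 (0.264), Nbdy (0.268) and Lca5 (0.276), and for Ets1 Ppp1cc (0.347), Cdk2ap2 (0.347) and Srgn (0.387). Maf encodes a bZIP transcription factor of effector T cells.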

How the data were processed

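Each array compared DN4 with DN3 RNA, labelled with Alexa 555 or Alexa 647, and groups were taken from the source names. The scanner files give the intensity of each spot, which the authors extracted with Agilent Feature Extraction (9.5.1.1 for slides 1 and 2, 9.5.3.1 for slides 3 and 4, per the file headers). The log10 ratios in the authors' deposited series table equal Agilent's log ratio turned to DN4 over DN3 (largest difference 4.87e-08), with a median of 0 in each column. Probe positions are in mm7, which the file headers of slides 3 and 4 name. Agilent's log ratios correlated at 0.556 to 0.910 between arrays of one dye orientation and at -0.841 to -0.496 between opposite ones.

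With R 4.3.3 and limma 3.58.1, mean signals were background-corrected (normexp, offset 50) and normalised by loess within arrays, with the 1639 control spots at weight 0. Spots marked as outliers (0.354%) were set missing, spots of one probe were averaged, and probes were kept if 1 channel was well above background on 3 or more arrays. Median signals per array ran from 233 to 595 (DN4) and from 443 to 571 (DN3). The limma fit (lmFit, eBayes) over 7 arrays had terms for Lig+, Lig- and dye, with Benjamini-Hochberg adjustment over 34906 probes at 0.05, and 4 residual and 2.35 prior degrees of freedom. The dye term passed for 289 probes. The number of arrays limits the precision, with a median SE of 0.092, 0.10 and 0.13 in the 3 comparisons. Intensities were quantile-normalised between arrays (Aquantile) for levels.

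Probes were renamed through a RefSeq gene table by accession (22951), current symbol (6659) or older symbol (3109), and 8455 kept the name in the file. The named genes are every probe of the 9 factors, each factor counted by its brightest probe. Of each list up to 4 called genes with the largest change are named, and 3 nearest genes for each factor with a log2 ratio of at least 1 in size. Some genes that these rules name are not reported here. Factors, lists and rules were chosen with earlier results of these data known. Alternatives were Agilent's processed signals, the authors' log ratios, median centring, other filters, no dye term, scan day and slide, each group's own arrays, 1 probe per gene and each array left out. The fit was tested on simulated data.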

Additional observations from a re-analysis of the deposited data

Results flagged for a closer look

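The main Runx1 probe read -2.39 on Lig+ replicate 2, apart from the other 3 Lig+ arrays at -1.89 to -1.82, a gap of 0.884 of the group's range, which exceeds Dixon's critical value for 4 samples. Of 30 groups tested in this way about 1 in 20 would be marked by chance.

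The Lig+ minus Lig- difference passed its test at 7 probes: Tcf7 A_52_P244702 (-0.81), Lef1 A_51_P420400 (0.73), Gata3 A_52_P546363 (-2.69) and the 4 Myb probes (-2.80, -2.67, -2.59 and -1.45). The Gata3 difference and the first 3 of the Myb probes kept their call in all alternatives run.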

How the results depend on the processing

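The count of the 9 genes called in Lig+ against DN3 was 8 and fell to 5 with each group's own arrays alone (25.4% of all probes), a fit with fewer arrays, and ran from 5 to 8 with 1 array left out, a fall to 5 that came without Lig+ replicate 1 (16.1%). In Lig- against DN3 it ran from 6 to 7 with 1 array left out, while the share of all probes ran from 11.1% to 35.1%. Between the groups it was 3 (10.9% of all probes), and 9 on scan day 1 (44.0%), 6 on scan day 2 (17.6%), 8 with scan day as a fixed term (22.1%), 8 with slide as a random block (23.8%), 5 with slide as a fixed block (20.5%), 5 without slide 2 (10.5%, added after seeing the data) and 2 to 5 with 1 array left out (2.76% to 14.1%). The slide correlation was 0.584. Replicate numbers follow sample order and name samples only. Replicates 1, 2 and 3 of both groups share slides 1, 2 and 3, so slide as a fixed block is the paired fit of these arrays, and it added Satb1 (-0.76) and Tox (-0.86) to the calls. Values near 0 that changed sign were Myb A_51_P375543 in Lig- (0.03), at -0.11 with median centring, -0.014 without a dye term, -0.0062 and -0.029 on scan days 1 and 2, and -0.036 to 0.095 with 1 array left out; Lef1 A_52_P333110, at -0.023 in Lig- on scan day 2 and, between the groups (-0.01), at 0.52 with Agilent's processed signals and 0.52 with the authors' log ratios, 0.039 on scan day 2, 0.0037 with scan day as a term, and -0.069 to 0.034 with 1 array left out. Between the groups Ets1 A_52_P258291, A_52_P232830 and A_51_P329043 were at -0.18, -0.16 and -0.063 on scan day 1, Ets1 A_52_P194250 from -0.56 to 0.018 with 1 array left out, and Runx1 A_52_P202358 at 0.018 on scan day 2. Satb1 A_52_P110489 in Lig+ (0.36) was at -0.76 on scan day 2 and -0.028 to 0.71 with 1 array left out. The cause was not tested.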

Other observations

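A second probe of Bcl11b stood outside the rule by name: A_52_P925277 carries the older name 9130430L19Rik in the scanner files, and the RefSeq gene table lists that name under Bcl11b. It was looked at after the values of the named Bcl11b probe were seen. It read -0.69, -0.60, -1.38 and -1.20 on the Lig+ arrays and 0.60, 0.62 and 0.14 on the Lig- arrays. As with the named probe, all Lig+ arrays were below 0 and all Lig- arrays above it, and the Lig+ arrays of scan day 2 were the lower ones. The limma fit gave -0.89 ± 0.16 (n = 4, adjusted p = 0.00502) in Lig+, 0.50 ± 0.17 (n = 3, adjusted p = 0.0684) in Lig- and -1.39 ± 0.22 (adjusted p = 0.013) for the difference, which passed here and not at the named probe.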
